A study of Mus musculus with 15 samples.

Results

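Interferons act through a small set of cell surface receptors, and the 8 genes described here are the chains of those receptors with 2 of their ligands. They are Ifnar1 and Ifnar2, the chains of the type I receptor, Ifngr1 and Ifngr2, the chains of the type II receptor, Ifnlr1 and Il10rb, the chains of the type III receptor, and the ligands Ifnb1 and Ifng. The receptor chains were chosen by name and function and the ligands as those detectable in these tumors, and all 8 were among the 32543 gene entries of the table. Levels are in CPM, counts scaled to a common library size. A gene was tested where it passed the study's CPM minimum in at least 3 tumors, and 15494 genes did. The 6 receptor chains and Ifng passed this filter and Ifnb1 did not.

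Type I interferons such as interferon beta are made by cells that sense viral nucleic acid, and their receptor signals through the kinases Jak1 and Tyk2 to transcription factors that include Stat2 and Irf9. Interferon gamma, the product of Ifng, comes mainly from NK cells and T cells, and its receptor signals through Jak1 and Jak2. Type III interferons bind Ifnlr1, which is largely limited to epithelial cells and neutrophils in mice, while Il10rb is shared with the receptors of interleukin-10 and interleukin-22 and is common on leukocytes.

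RNA was sequenced from 15 subcutaneous tumors of WEHI-164, a single mouse fibrosarcoma line, grown in female wild-type (WT) BALB/c mice that the study's methods give as 8 to 12 weeks old. Day 0 tumors were untreated per the labels, and treated tumors received poly(I:C), a synthetic double-stranded RNA sensed by Toll-like receptor 3, by injection into the tumor and were taken on day 1, 3, 5 or 7, with 3 tumors on each of the 5 days. Per the labels the daily dose was 1 µg in 25 µL with 6 doses planned. The dose is uncertain, since a higher one appears in a supplementary legend of the study. Legends of the study speak of vehicle-treated tumors instead, and no sample used here is labelled as given vehicle, so the injection and the agent cannot be told apart. No tumor after day 0 is labelled untreated, so time of growth and doses received cannot be told apart between harvest days. With 6 daily doses planned, day 7 fell after the last planned dose. The legends count replicates as mice, which the labels do not state, and the p-values measure the spread between these tumors.

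Total counts per tumor were 23713090 to 31913106. A single tumor, day 3 replicate 1, stood apart, with a mean correlation of 0.884 to the other tumors against 0.956 to 0.976 for the rest. Its summed marker level was the highest of the 15 tumors for 11 of the 14 cell type lists examined, skeletal muscle (2032 CPM against 2.16 to 133 CPM elsewhere) and adipocyte (41.2 CPM against 0.325 to 7.54 CPM) among them. All 7 markers of the fibroblast or sarcoma list had more than 3 counts in every tumor, and so did all 7 macrophage, 9 T cell and 7 NK cell markers. In whole tumors, fewer cells of a type and less RNA per cell cannot be told apart.

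The regions upstream of the start sites are shown for those of the 8 genes in which a motif was found. Ifngr1, Ifngr2 and Ifnlr1 had no match and are not shown. Any part of the motifs in the levels was not tested. RefSeq promoters on GRCm38.p6 (250 bases before to 50 after the start) were found for 7 of the 8 genes, all but Il10rb. Each was searched on both strands for TTCNNNGAA (the core of the gamma-activated site), GAAANNGAA (the core of the interferon-stimulated response element), AANNGAAA (the core bound by interferon regulatory factors, which can overlap a GAAANNGAA match) and GGAAATTCC (a form of NF-kB site). The motifs were chosen with the sequences in view. The printed stretches run from 250 bases before to 10 bases after the start, 5′ to 3′, and capitals mark matches.
Ifnar1 (plus strand, chr16:91484965-91485224): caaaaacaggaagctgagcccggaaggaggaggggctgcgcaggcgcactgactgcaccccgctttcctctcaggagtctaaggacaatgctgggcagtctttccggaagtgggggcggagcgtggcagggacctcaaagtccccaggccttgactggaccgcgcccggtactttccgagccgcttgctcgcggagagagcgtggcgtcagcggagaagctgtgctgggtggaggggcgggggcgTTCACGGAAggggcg
Ifnar2 (plus strand, chr16:91372533-91372792): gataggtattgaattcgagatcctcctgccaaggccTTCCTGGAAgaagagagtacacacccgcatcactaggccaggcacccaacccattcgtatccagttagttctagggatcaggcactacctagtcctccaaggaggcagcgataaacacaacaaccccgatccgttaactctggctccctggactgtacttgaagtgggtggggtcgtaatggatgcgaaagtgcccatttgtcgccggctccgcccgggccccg
Ifng (plus strand, chr10:118440796-118441055): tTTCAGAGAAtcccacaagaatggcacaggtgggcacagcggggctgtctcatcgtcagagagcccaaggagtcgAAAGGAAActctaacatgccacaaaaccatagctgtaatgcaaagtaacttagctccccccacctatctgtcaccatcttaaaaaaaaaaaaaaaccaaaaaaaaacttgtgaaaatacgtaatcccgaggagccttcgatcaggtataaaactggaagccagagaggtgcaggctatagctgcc
Ifnb1 (minus strand, chr4:88522785-88523044): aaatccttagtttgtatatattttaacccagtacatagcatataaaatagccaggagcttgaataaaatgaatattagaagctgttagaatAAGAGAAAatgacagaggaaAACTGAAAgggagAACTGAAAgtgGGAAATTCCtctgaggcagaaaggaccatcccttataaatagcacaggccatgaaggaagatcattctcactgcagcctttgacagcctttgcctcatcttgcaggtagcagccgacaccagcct
TTCNNNGAA matched in Ifnar1 (5 bases before the start), Ifnar2 (214 bases before it) and Ifng (249 bases before it), which is 3 of 7 genes, and it occurred in 8.3% of 32851 mouse promoters of the same length. AANNGAAA matched at 3 places in Ifnb1 and at 1 in Ifng, which is 2 of 7 genes, and it occurred in 23.9% of all promoters. GGAAATTCC matched in Ifnb1 alone of the 7, 115 bases before the start, and in 0.317% of all promoters. GAAANNGAA matched in none of the 7 and in 8.56% of all promoters. A match describes letters in this window and says nothing of binding.

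Among the ligands, Ifnb1, the gene of interferon beta (a single exon on chromosome 4, GRCm38 positions 88522025 to 88522774, minus strand), was close to the limit of detection in every tumor but 1. Day 1 replicate 3 held 21 counts (exact Poisson 95% interval 13.0 to 32.1), and the other 14 tumors held between 1 and 6. The day 0 tumors had 3, 1 and 1 counts, and the other day 1 tumors had 1 count each. A count of 3, the limit that a count of 0 allows, was worth 0.0972 to 0.125 CPM. These intervals cover counting error only.

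The day 1 mean of Ifnb1 was 0.251 ± 0.372 CPM and the day 0 mean 0.0595 ± 0.0361 CPM (SD, n = 3), and an exact two-sided permutation test of the difference of 0.192 CPM gave p = 0.9. The ranges overlapped, and without day 1 replicate 3 the difference was -0.0228 CPM. On days 3, 5 and 7 the differences from day 0 were 0.0423, 0.0605 and 0.0332 CPM, with exact permutation p of 0.3, 0.3 and 0.2. The smallest p that 3 tumors against 3 allow is 0.1, and adjusted over the 4 comparisons the exact p were 0.9, 0.4, 0.4 and 0.4. The 19 other interferon ligand genes listed (13 Ifna genes, Ifnab, Ifne, Ifnk, Ifnz, Ifnl2 and Ifnl3) had at most 2 counts in any tumor and none was tested.

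Day 1 replicate 3 also had the highest level of a list of 13 type I response genes, such as Ifit3, an antiviral protein, and Irf7, a transcription factor of interferon genes. The level, a mean of log2 CPM over the list, was 8.29 in that tumor, 6.77 and 6.48 in the other day 1 tumors, 6.70 to 7.58 on day 3 and 5.52 to 5.88 on day 0. On day 1 all 13 genes had a higher mean than on day 0, and the median log2 fold change was 1.65 against a median of -0.000244 over all genes tested. None passed the adjusted edgeR test, 13 had an unadjusted p under 0.05 (3.16% of all genes), and DESeq2 called 8 (0.259%). The tumor with the most Ifnb1 counts was thus also the tumor with the highest type I response level, and in the other day 1 tumors that level lay above day 0 with 1 Ifnb1 count each.

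Ifng (4 exons on chromosome 10, plus strand, 118441046 to 118445892) had the widest spread over the 15 tumors of the 7 tested members, with an SD of log2 CPM of 1.14. Day 0 tumors had 1.65, 2.05 and 2.72 CPM, and day 3 tumors had 5.56, 8.31 and 5.29 CPM. All day 3 tumors lay above all day 0 tumors. Day 1 tumors had 1.20, 2.67 and 6.19 CPM, day 5 tumors 6.44, 6.19 and 1.37 CPM, and day 7 tumors 0.692, 3.16 and 0.711 CPM. Days 1, 5 and 7 each overlapped day 0, with tumors both below and above its range.

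Between days 0 and 3 the fitted fold of Ifng was 2.98 (95% confidence interval 1.02 to 8.74), a log2 fold change of 1.58 ± 0.72 (SE), with an adjusted edgeR p of 0.163. From day 3 to day 7 the log2 fold change was -2.06 ± 0.73 with an adjusted edgeR p of 0.0911, and the tumors did not overlap. Without day 7 replicate 2 that change was -3.18. DESeq2 gave adjusted p of 0.0955 and 0.0268 for these comparisons. Without day 3 replicate 1, the day 3 log2 fold change was 1.67 ± 0.79 and that of day 7 against day 3 was -2.15 ± 0.80. The adjusted edgeR p were then 0.387 and 0.315, and DESeq2 gave an adjusted p of 0.310 for the first comparison. DESeq2 gave no adjusted p for Ifng in the second comparison without that tumor.

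**Figure D1:**
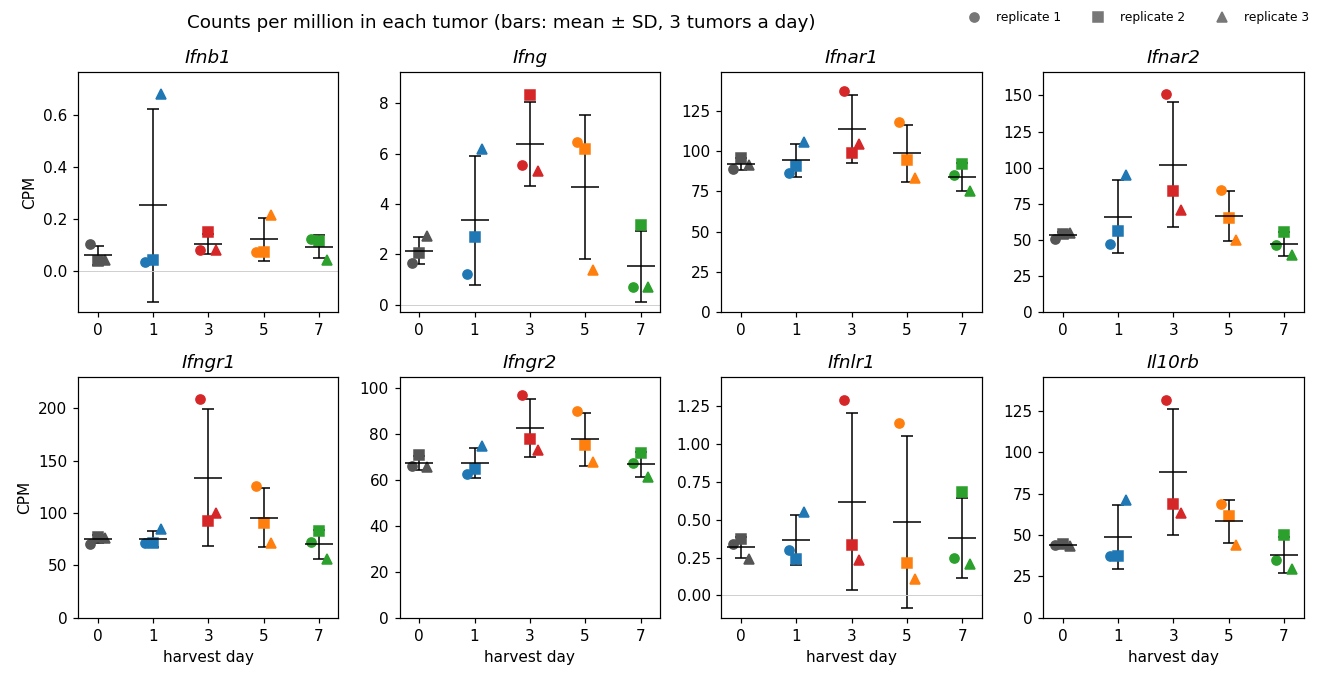
CPM of each of the 8 genes (one panel each, y axes starting at or below 0) in each tumor against harvest day, with circles, squares and triangles for replicates 1, 2 and 3 and bars for the mean ± SD of 3 tumors. Day 3 replicate 1 was the highest tumor for all 6 receptor chains, day 3 replicate 2 for Ifng (8.31 CPM) and day 1 replicate 3 for Ifnb1 (0.681 CPM).

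Genes that drive or sense the signals for Ifng were counted as a list of 10, of which 9 were tested. On day 3, 8 of 9 had a higher mean than on day 0, and the median log2 fold change was 1.67 against -0.02 over all genes tested. None passed the adjusted edgeR test, 6 had an unadjusted p under 0.05 with a higher mean and 1 with a lower mean (30% of all genes in either direction), and DESeq2 called 4 (13.5%). Il18r1, a chain of the interleukin-18 receptor, had the highest log2 fold change at 2.28 ± 0.76, and Il18rap, its partner chain, the lowest at -0.48. Il18r1 had its highest count in day 3 replicate 1. Neither this list nor the interferon gamma response list below was counted again without that tumor. On day 1 the median of the list was 0.21. Of 12 interferon gamma response genes such as Ciita, the regulator of MHC class II genes, 12 had a higher mean on day 3 (median log2 fold change 0.77), 2 had an unadjusted p under 0.05 (30% of all genes) and DESeq2 called 1 (13.5%). On day 1, 12 of these had a higher mean (median 0.65), 4 had an unadjusted p under 0.05 (3.16% of all genes) and DESeq2 called 0 (0.259%). None passed the adjusted edgeR test on either day. The study holds that computation cannot tell which type of interferon drives such a signature.

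Levels of different genes were compared per kilobase of the longest annotated transcript (GENCODE M21, GRCm38). Ifngr1 had the highest median over the 15 tumors at 36.8 CPM per kilobase, followed by Ifnar1 (23.5), Ifngr2 (19.1), Ifnar2 (18.3) and Il10rb (15.9). Ifng was lower at 2.25 CPM per kilobase, and Ifnb1 (0.104) and Ifnlr1 (0.0719) were lowest. Within tumors Ifngr1 exceeded Ifnar1, Ifnar1 exceeded Ifngr2, Il10rb exceeded Ifng and Ifng exceeded Ifnb1 in 15 of 15, and Ifnar2 exceeded Il10rb in 14 of 15. Ifngr2 exceeded Ifnar2 in 7 of 15 and Ifnb1 exceeded Ifnlr1 in 8 of 15, so these neighbours did not differ beyond their spread. With the length of all annotated exons in place of the longest transcript, Ifnar1 (15.5 CPM per kilobase) came below Ifngr2 (18.8) and Ifnar2 (16.8).

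**Figure D2:**
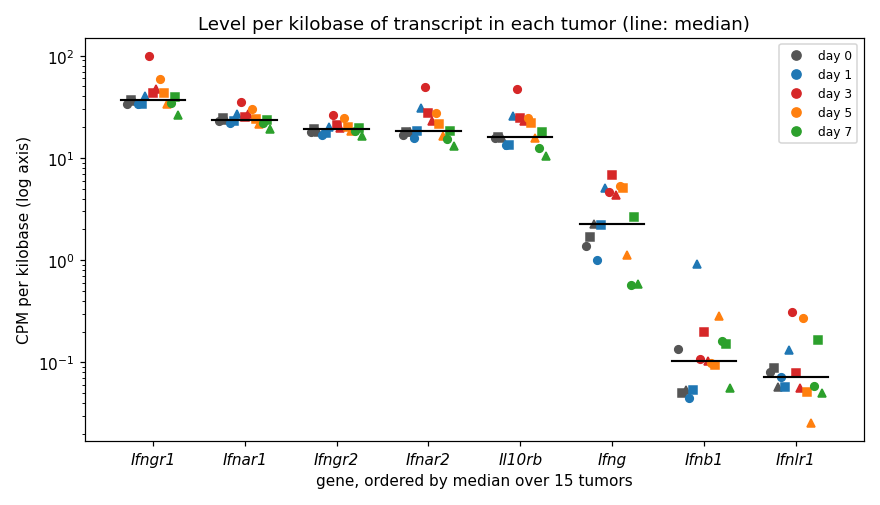
Level per kilobase of the longest transcript in each of the 15 tumors on a log axis, coloured by harvest day, with replicate shapes as before and a line at the median. Ifngr1 to Il10rb lie between 10.5 and 98.9 CPM per kilobase, and Ifnb1 and Ifnlr1 lie below 0.91.

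The receptor chains as a set showed no adjusted edgeR call. None of the 7 tested members, and 0% of all genes, passed an adjusted p of 0.05 on day 1, 3, 5 or 7 against day 0, on day 7 against day 3, or in the joint test of harvest day. Unadjusted p under 0.05, DESeq2 and the overlap of tumors were therefore counted beside the edgeR calls, each with its share among all genes.

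On day 1, 0 of 7 members had an unadjusted edgeR p under 0.05 (3.16% of all genes), DESeq2 called 0 of 7 (0.259%) and 0 of 7 had tumors that did not overlap day 0 (12.4%). Day 5 gave the same counts of 0 (4.8%, 0.0742% and 17.7% of all genes), and so did day 7 (2.07%, 0.0324% and 11.3%). On day 3, 5 of 7 had an unadjusted p under 0.05 (30% of all genes), DESeq2 called 3 (13.5%), and 6 did not overlap day 0 (38.3%), all of them higher. Ifnlr1 was the member that overlapped. Day 3 was the only treated day on which any of these measures counted a member against day 0.

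From day 3 to day 7, 6 of 7 members had an unadjusted p under 0.05 (35.5% of all genes), DESeq2 called 5 (21.6%) and 6 did not overlap (33%), all lower on day 7. In the joint test, 3 of 7 had an unadjusted p under 0.05 (16.2%) and DESeq2 called 1, Il10rb (7.63%). Without day 3 replicate 1 (its leave-one-out counts by unadjusted p and by DESeq2 were added after the data were seen), no member had an unadjusted p under 0.05 on day 3 (13.1% of all genes) and DESeq2 called none of them on day 3 (0.553%), from day 3 to day 7 (1.59%) or jointly (1.39%). From day 3 to day 7, 3 members then kept an unadjusted p under 0.05 (15.7%). Every tested member but Ifnlr1 still did not overlap in both pairwise comparisons, which leaving out a tumor cannot undo. Without day 3 replicate 3, edgeR called Ifnar2, Ifngr1 and Il10rb from day 3 to day 7 (adjusted p of 0.0494 for each) among 13.5% of all genes.

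**Figure D3:**
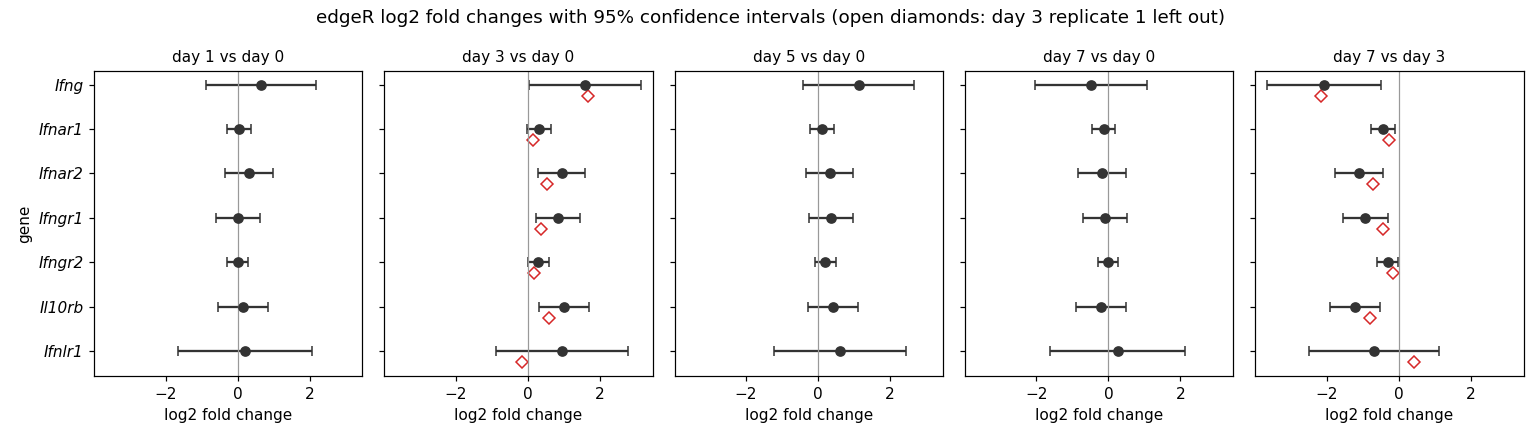
Log2 fold changes (x axis) of the 7 tested members (y axis) in the 5 comparisons, with edgeR 95% confidence intervals as bars and open diamonds for the estimate without day 3 replicate 1. On day 3 that exclusion moved Ifnar2 from 0.93 to 0.54, Ifngr1 from 0.83 to 0.36 and Ifng from 1.58 to 1.67.

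Of the type I receptor chains, Ifnar2, the chain that binds interferon most tightly, had the larger day 3 difference. Ifnar2 was at 51.0, 54.3 and 54.7 CPM on day 0 and at 151, 83.9 and 70.7 CPM on day 3. The lowest day 3 tumor was above the highest day 0 tumor, and day 3 replicate 1 was the highest of all. The fold was 1.91 (95% confidence interval 1.21 to 3.02), with an adjusted p of 0.115 by edgeR and 0.0342 by DESeq2. Without day 3 replicate 1 the log2 fold change was 0.54 ± 0.27 in place of 0.93 ± 0.31, and the adjusted p by DESeq2 was 0.368.

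On day 1, Ifnar2 was at 47.5, 56.4 and 94.7 CPM, so that replicate 3 alone was above day 0. The log2 fold change of 0.31 ± 0.30 was -0.04 without that tumor. Day 5 tumors had 84.6, 65.0 and 50.2 CPM and day 7 tumors 46.3, 55.8 and 39.5 CPM, both overlapping day 0. From day 3 to day 7 the log2 fold change was -1.11 ± 0.31, with an adjusted p of 0.0832 by edgeR and 0.0127 by DESeq2.

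Ifnar1, the other type I chain, was at 88.8, 95.8 and 91.1 CPM on day 0, at 86.2, 90.7 and 106 CPM on day 1 and at 138, 98.5 and 105 CPM on day 3. Day 3 again lay above day 0 without overlap, but the fold was 1.24 (95% confidence interval 0.986 to 1.55) and the adjusted edgeR p was 0.185. Over all 15 tumors the highest Ifnar1 level was 1.83 times the lowest, against 3.83 times for Ifnar2. The SD of log2 CPM was 0.214 for Ifnar1 and 0.498 for Ifnar2, and the median over all genes tested was 0.292.

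The ratio of Ifnar2 to Ifnar1 per kilobase was 0.737, 0.727 and 0.771 on day 0 and 1.41, 1.09 and 0.867 on day 3. The ratios of the 2 days did not overlap. On day 1 it was 1.15 in replicate 3 and 0.707 and 0.798 in the others. The day 3 ratio was 1.48 times the day 0 ratio, with an exact permutation p of 0.1 (two-sided, the smallest possible) and 0.133 adjusted over the 4 pairs of chains compared.

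Of the type II receptor chains, Ifngr1, the main binding chain for interferon gamma (chromosome 10), was at 70.9, 77.6 and 76.6 CPM on day 0 and at 209, 92.1 and 100.1 CPM on day 3. The tumors did not overlap, and the value of day 3 replicate 1 was over that of every other tumor, the next being 126 CPM in day 5 replicate 1. The day 3 log2 fold change was 0.83 ± 0.29 (adjusted p of 0.116 by edgeR and 0.0439 by DESeq2) and 0.36 ± 0.21 without that tumor. On day 1 the level was 71.6, 71.0 and 84.5 CPM and the log2 fold change 0.01 ± 0.28.

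Ifngr2, the signalling chain that recruits Jak2, was the least variable member, with an SD of log2 CPM of 0.185. It was at 66.0, 71.0 and 65.7 CPM on day 0, at 62.5, 64.7 and 75.0 CPM on day 1 and at 97.0, 77.9 and 73.1 CPM on day 3. The day 3 tumors were all above day 0 by a fold of 1.22 (95% confidence interval 1.01 to 1.49), with an adjusted edgeR p of 0.160. The ratio of Ifngr1 to Ifngr2 per kilobase was 1.89, 1.92 and 2.04 on day 0 and 3.78, 2.08 and 2.40 on day 3. This ratio was 1.37 times higher on day 3, with an exact permutation p of 0.1 and an adjusted value of 0.133.

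Il10rb, the chain shared by type III interferon, interleukin-10 and interleukin-22 receptors, had the largest day 3 difference of the chains with over 1 CPM. Day 0 tumors were at 43.8, 44.3 and 43.5 CPM and day 3 tumors at 132, 69.0 and 63.5 CPM. The groups did not overlap, and the day 0 tumors were close together. The fold was 2.01 (95% confidence interval 1.24 to 3.25), with an adjusted p of 0.115 by edgeR and 0.0309 by DESeq2. Without day 3 replicate 1 the log2 fold change was 0.60 ± 0.29 in place of 1.01 ± 0.32, and the adjusted p by DESeq2 was 0.344.

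On day 1, Il10rb was at 37.4, 37.7 and 71.2 CPM, with the first pair below and replicate 3 above all day 0 tumors. Day 7 tumors had 34.7, 50.2 and 29.3 CPM, and from day 3 to day 7 the log2 fold change was -1.21 ± 0.32 (adjusted p of 0.0832 by edgeR and 0.0114 by DESeq2). Of 10 genes of the interleukin-10 family, 3 passed the filter. On day 3, Il10 itself had a log2 fold change of 2.44 and Il10ra, the partner chain of Il10rb in the interleukin-10 receptor, of 1.71, while Il20rb was at 0.00. DESeq2 called 2 of the 3 (13.5% of all genes). Il10 and Il10ra had their highest counts in day 3 replicate 1, and this list was not counted again without that tumor.

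Ifnlr1, the specific chain of the type III receptor, was at 3 to 32 counts per tumor, or 0.108 to 1.29 CPM. The highest tumors were day 3 replicate 1 with 32 counts and day 5 replicate 1 with 31, and day 7 replicate 2 and day 1 replicate 3 followed with 18 and 17. All days overlapped. The day 3 log2 fold change of 0.94 ± 0.84 was -0.16 without day 3 replicate 1, so the direction rested on that tumor. Epithelial markers, of interest because Ifnlr1 is an epithelial receptor chain, summed to 40.3 to 198.6 CPM, and day 3 replicate 1 had the lowest sum of all 15 tumors. Of these 7 markers, 4 had more than 3 counts in every tumor and 4 were tested. On day 3, 1 of the 4 had a higher mean than on day 0 and 3 a lower mean. Markers of neutrophils, which also carry this chain, summed to 195 CPM in that tumor, the highest of the 15, against 11.6 to 116 CPM elsewhere. By the mean of log2 CPM over the 5 tested neutrophil markers, day 1 replicate 3 was higher, at 3.43 against 3.23. The part of either cell type in the Ifnlr1 values was not tested.

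Ifnar2, Il10rb, Ifnar1 and Ifngr2 lie in this order within 192.841 kb of chromosome 16, all on the plus strand. Ifnar2 spans 91372783 to 91405589, Il10rb 91406164 to 91425834, Ifnar1 91485238 to 91507441 and Ifngr2 91547072 to 91565623. The day 3 log2 fold changes were 0.93 and 1.01 for the first pair and 0.31 and 0.29 for the second. The ratio of Ifnar2 to Il10rb per kilobase on day 3 was 0.953 times that on day 0 (exact permutation p of 0.2), whereas the ratio of Il10rb to Ifnar1 was 1.55 times that on day 0 (exact permutation p of 0.1, adjusted 0.133).

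A read-through gene, Gm21970, shares 315 exon bases with Ifnar2 and 569 with Il10rb, so reads there could be divided between the 3 genes. It was given 0 to 14 counts per tumor, at most 0.636% of the Il10rb count. Beyond Ifngr2, the neighbours Tmem50b, Dnajc28 and Gart had day 3 log2 fold changes of 0.36 ± 0.20, 0.95 ± 0.41 and -0.15 ± 0.26. Olig1 and Olig2 on the other side of the cluster had at most 2 counts in any tumor.

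**Figure D4:**
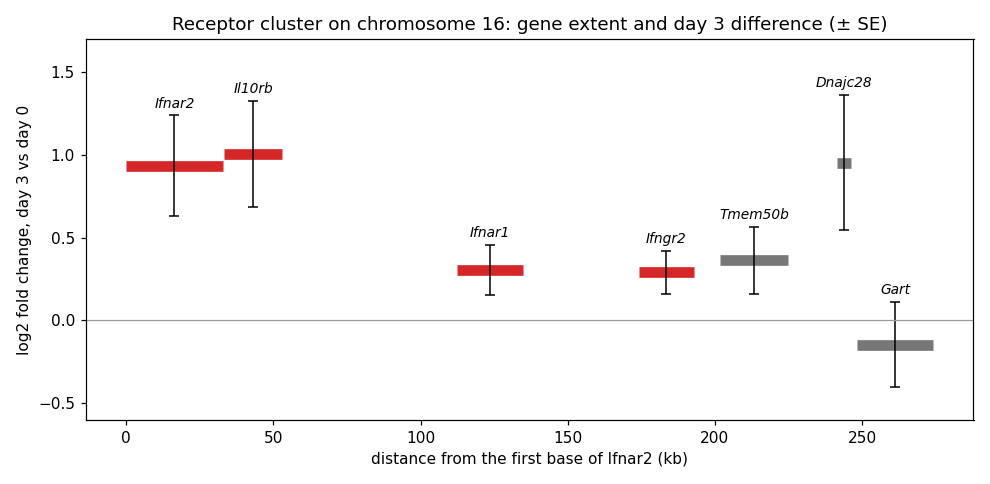
Day 3 against day 0 log2 fold change ± SE (y axis) of the tested genes of the chromosome 16 receptor cluster (red) and its downstream neighbours (grey), with bars over the extent of each gene as distance in kb from the first base of Ifnar2 (x axis). Ifnar2 and Il10rb sit near 1, and Ifnar1 and Ifngr2 sit near 0.3.

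Genes that act directly downstream of the receptors were counted as a list of 14, and all 14 were tested. On day 3, 11 of 14 had a higher mean than on day 0, and the median log2 fold change was 0.45. None passed the adjusted edgeR test, 6 had an unadjusted p under 0.05, all with a higher mean (30% of all genes in either direction), and DESeq2 called 4 (13.5%). Ptpn6, a phosphatase of blood cells that limits this signalling, had the highest log2 fold change at 1.42, and Jak2 the lowest at -0.20. Ptpn6 had its highest count in day 3 replicate 1, and this list was not counted again without that tumor. On day 1 the median was 0.17, 4 had an unadjusted p under 0.05 (3.16% of all genes), DESeq2 called 1 (0.259%), and Usp18, which binds Ifnar2 and damps type I signalling, had the highest log2 fold change at 1.71. Stat2 and Irf9 had day 1 log2 fold changes of 1.10 ± 0.31 and 0.54 ± 0.17, and neither passed the adjusted edgeR test. Both had their highest count in day 1 replicate 3. Jak2 was the lowest of the list on day 1 at -0.25. None of the receptor chains had an unadjusted p under 0.05 on that day.

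Markers of several cell types were higher on day 3, as the receptor chains were. The 9 T cell markers summed to 33.3 to 47.0 CPM on day 0 and 104 to 343 CPM on day 3, the 7 macrophage markers to 1340 to 1368 CPM and 2002 to 5220 CPM, and the 7 NK cell markers to 92.1 to 132 CPM and 232 to 387 CPM. Their part in the receptor differences was not tested. No marker of these lists was at 0 in all tumors. On day 3, 9 of 9 T cell, 7 of 7 NK cell and 6 of 7 macrophage markers had a higher mean than on day 0, with median log2 fold changes of 2.22, 1.91 and 1.48. DESeq2 called 8, 3 and 6 of them (13.5% of all genes), and edgeR none. Other lists were higher too, with 5 of 5 monocyte, 6 of 7 fibroblast or sarcoma and 4 of 4 endothelial markers at a higher mean on day 3 and median log2 fold changes of 1.62, 1.26 and 1.04. DESeq2 called 3, 2 and 0 of them (13.5% of all genes), and edgeR none. Without day 3 replicate 1, DESeq2 called 0.553% of all genes on day 3, and the calls in these lists were not counted again.

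Correlations were taken over the 15 tumors between log2 CPM of each of the 7 tested members and the level of 4 lists, 28 relations in all, with 100000 permutations. The tumors share days, so values within days (each tumor against its day mean) are given beside the pooled ones. The permutations moved tumors freely between days, so their p-values also take in differences between days. The within-day values were not tested. For Ifnar1, Ifnar2, Ifngr1, Ifngr2 and Il10rb, Pearson's r with the T cell level was 0.923 to 0.964 and Spearman's rho 0.900 to 0.943, with an adjusted permutation p of 2e-05 for each r. Within days r was 0.857 to 0.928, and without the 2 tumors farthest from the median T cell level it was 0.876 to 0.964. With the macrophage level r was 0.898 to 0.961 (within days 0.839 to 0.941, without the 2 farthest tumors 0.777 to 0.928). With the NK cell level r was 0.827 to 0.930 (within days 0.663 to 0.843, without the 2 farthest tumors 0.827 to 0.956). The remaining cell type lists were not correlated with the members, so no relation is shown to be particular to these lists.

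With the type I response level the same 5 chains had r of 0.279 to 0.590 and rho of 0.507 to 0.643, with adjusted permutation p of 0.0273 to 0.308 for r and 0.0163 to 0.0621 for rho. Within days r was -0.07 to 0.382, and these within-day values were not tested. Without day 3 replicate 1 the pooled r was 0.313 to 0.719. Ifng correlated with the NK cell level at r = 0.958 and rho = 0.939 (adjusted permutation p of 2e-05 for r and 5.09e-05 for rho), at 0.929 within days and at 0.973 without the 2 farthest tumors. Its r was 0.886 with the T cell level and 0.745 with the macrophage level. The NK cell list includes Gzmb, the gene of granzyme B, which the study also measured in canine CD8 T cells. Which cells carried the Ifng RNA was not tested. An unadjusted permutation p of 1e-05 is the smallest that these permutations can give.

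**Figure D5:**
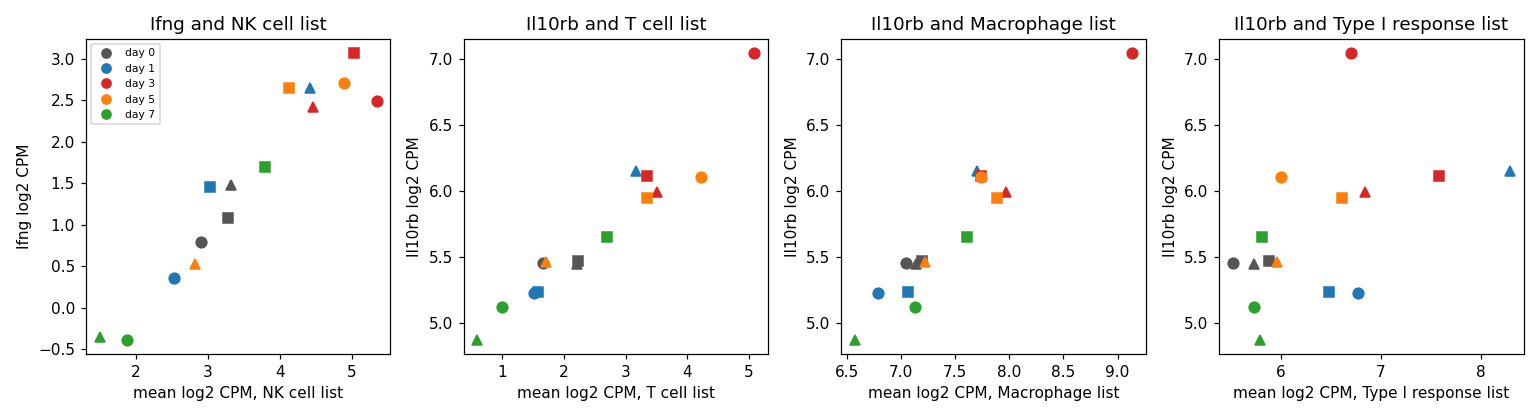
Log2 CPM of Ifng or Il10rb (y axes) against the mean log2 CPM of the NK cell, T cell, macrophage and type I response lists (x axes) in the 15 tumors, coloured by harvest day, with replicate shapes as before. Ifng and the NK cell list follow one line (r = 0.958), as do Il10rb and the T cell list (r = 0.964), while Il10rb against the type I response list is scattered (r = 0.517).

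Members also moved with each other. Ifnar2 and Il10rb had the highest r of the 21 pairs at 0.972 (0.946 without day 3 replicate 1 and 0.967 within days), and Ifnar1 and Ifngr1, on different chromosomes, followed at 0.956. Ifng had r of 0.671 to 0.825 with the 5 chains above.

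The genes most like each member, by Pearson's r of log2 CPM over the 15 tumors, are given as a description. For Ifnar1 they were Dpp4, a surface peptidase, at 0.984, Irak4, a kinase of Toll-like receptor signalling, and Vopp1. For Ifnar2 they were Eng (endoglin) at 0.994, Rnaset2b and Mif4gd, and for Ifngr1 Txndc16 at 0.992, 2510002D24Rik and Ablim1. Those for Ifngr2 were Btg2 at 0.974, Birc3 and Spns3, and those for Il10rb were P2rx4, an ATP-gated channel, at 0.990, Mtm1 and Slc43a2. Ifnlr1 had Npr1 at 0.927, Galnt18 and Cd40lg, the ligand of CD40. Ifng had Inpp5j at 0.977, C5ar1, the receptor of complement C5a, and Il15ra, which presents interleukin-15. Over these 21 partners r was 0.917 to 0.994, and 0.876 to 0.988 without day 3 replicate 1.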

How the data were processed

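Libraries of polyadenylated RNA were read by the authors from a single end (100 bases, Illumina), quantified by transcript with kallisto and summed to genes with tximport on GRCm38. The authors deposited the result as an estimated count per gene, a whole number, with 1 column per tumor. The transcript set and strandedness are not given in the sources used here. Kallisto divides reads shared by overlapping transcripts. Members and gene lists were chosen with earlier results of these data known.

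Of 32544 entries, 9156 had no count, and 1 entry turned into a date (at most 0.0268% of counts) was left out. All members matched by symbol. Tests used edgeR 4.0.16 in R 4.3.3 (TMM, quasi-likelihood F test, harvest day as the only term, all 15 tumors, two-sided, Benjamini-Hochberg over 15494 genes, threshold 0.05). DESeq2 1.42.0 was run as an alternative, in which missing adjusted p-values stayed missing. Log2 CPM used a prior count of 2, and the edgeR comparison of day 3 with day 0 was tested on simulated counts. DESeq2, the joint test and the permutation tests were not tested in this way. Each pair of same-day tumors differed beyond counting error (chi-square per degree of freedom 9.58 or more). Named partner genes are the 3 with the highest r for each member. List genes are named as the highest or lowest of a list, or where set beside a member. Coordinates are from GENCODE M21, counted from 1. Alternatives were RLE factors, no filter, only the groups compared, a replicate block and leaving out each tumor. The values of a listed signalling gene are not reported here.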

Additional observations from a re-analysis of the deposited data

How the results depend on the processing

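The count of members called by edgeR was 0 in all 6 comparisons with RLE factors, without the filter and with the replicate block, and in the 5 pairwise comparisons with only the groups compared in the fit. Deviations of same-numbered tumors from their day means correlated at -0.619 to 0.511 (median -0.096). Those of differently numbered tumors correlated at -0.591 to 0.613 (median 0.021). Same-numbered tumors were thus not more alike, though 3 tumors a day limit what this check can show. DESeq2 called 3 members on day 3, 5 from day 3 to day 7 and 1 in the joint test. Leaving out each tumor gave 0 to 3 calls from day 3 to day 7, the 3 without day 3 replicate 3, and 0 elsewhere. Without day 3 replicate 1 the DESeq2 counts were 0 on day 3, 0 from day 3 to day 7 and 0 jointly, and the counts with an unadjusted p under 0.05 were 0 and 3. The cause of these shifts was not tested.

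For Ifnb1, leaving out each day 0 or day 1 tumor gave a day 1 difference of -0.0228 to 0.301 CPM.

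Leaving out each tumor changed the sign of these log2 fold changes, with the ranges Ifnar1 -0.053 to 0.095, Ifnar2 -0.036 to 0.50, Ifngr1 -0.072 to 0.057, Ifngr2 -0.086 to 0.048, Ifnlr1 -0.22 to 0.42, Il10rb -0.22 to 0.31, Ifng -0.14 to 1.05 (day 1 against day 0), Ifnlr1 -0.16 to 1.33 (day 3 against day 0), Ifnar1 -0.046 to 0.21, Ifnlr1 -0.96 to 1.07 (day 5 against day 0), Ifngr1 -0.23 to 0.0498, Ifngr2 -0.071 to 0.043, Ifnlr1 -0.48 to 0.55 (day 7 against day 0), Ifnlr1 -1.42 to 0.44 (day 7 against day 3). The day 1 value of Ifngr2, -0.00374 as reported, was 0.000665 without the filter and 0.000746 with the replicate block. On day 1 all tested members but Ifngr2 turned from higher to lower without day 1 replicate 3. Depth limits Ifnb1 and Ifnlr1, at 1 to 32 counts per tumor.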
